A study of Mus musculus with 16 samples.

Results

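The genes described here were 40 genes of glucose uptake, glycolysis, lactate metabolism, the pentose phosphate pathway, the gate into the citric acid cycle and the response to low oxygen, out of 27674 gene names on the array. They were chosen by name, as the probes that the scanner files label with one of the 40 symbols, with 1 probe kept per gene (the one with the highest mean over the arrays). The 40 genes had 74 probes, and 39 genes passed the filter on dim probes. Car12, a carbonic anhydrase that low oxygen induces in many cells, was not well above background on any of the 16 arrays and was not tested.

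The samples were macrophages grown from bone marrow of male C57BL/6Jax mice for 9 days with M-CSF at 10 ng/mL, which drives their differentiation into macrophages. Adherent cells of miR-155 KO mice, which lack the microRNA miR-155, and of WT mice were lysed unstimulated (0 h) or 6, 12 and 24 h after 100 ng/mL LPS, a bacterial glycolipid sensed through Toll-like receptor signalling. Each of the 8 groups had 2 arrays, 16 arrays in all, and no label says whether the replicates came from separate mice or cultures, so the p-values measure the spread between these samples, which may be technical. The 0 h cells were lysed on day 9 and no unstimulated cells of the later times are analysed here, so time in culture and LPS cannot be told apart.

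Glycolysis breaks glucose down to pyruvate in the cytosol, and lactate dehydrogenase turns pyruvate into lactate when it is not passed to mitochondria. The pentose phosphate pathway branches off at the first phosphorylated glucose and supplies NADPH and ribose. Macrophages activated by LPS are known to use glucose fast and to release lactate, and hypoxia-inducible factor, which many LPS-treated macrophages stabilise even with oxygen present, is a known activator of several of the genes below.

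The RNA that separates the genotypes is miR-155, shown here because its loss defines the KO mice. Its mature strands come from mouse chromosome 16 (RefSeq, GRCm38.p6, plus strand), with the seed that pairs with target RNAs (bases 2 to 8) in capitals, at chr16:84714143-84714165 for the 5p strand and chr16:84714182-84714202 for the 3p strand.
mmu-miR-155-5p: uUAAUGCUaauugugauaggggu
mmu-miR-155-3p: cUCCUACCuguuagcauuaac
Because 0 probes on the array were named for miR-155 or the transcript it is cut from, its loss was not checked in these samples.

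Levels below are log2 of the processed signal minus the log2 of the array's 75th percentile, so that 0 is a probe as bright as that percentile. Before scaling, the 75th percentile lay between 270.8 and 729.9 scanner units, and the share of probes well above background was 56.0 to 67.6% per array. The number of arrays, 2 per group, limits the precision. All 8 macrophage markers on the array were well above background on all 16 arrays. Their summed log2 level was 10.18 to 11.50 with LPS and 9.72 to 10.86 at 0 h. Of 7 neutrophil markers 4 were well above background on all arrays and 1, Elane, on none, and their summed level was -0.54 to 3.49 at 24 h of LPS against 1.75 to 5.62 at 0 h. Of 4 dendritic cell markers 2 were well above background on all arrays, and their summed level was -0.30 to 1.23 at 6 h of LPS against -2.83 to -0.61 at 0 h. For 5 stromal markers, 3 of them well above background on all arrays and Pdgfra on none, the summed level was -0.00115 to 1.06 at 6 h of LPS against -0.64 to -0.17 at 0 h. Sums of the B lymphocyte, T and NK lymphocyte, erythroid, and mast and basophil markers were at most -0.27. The neutrophil, dendritic and stromal sums are given at 1 time of LPS each. At 24 h the dendritic sum, -1.92 to -0.24, overlapped that of 0 h. Markers of a list did not all move together. From 0 to 6 h in WT macrophages mean Fcgr1 went from 5.48 to 9.05 and Csf1r from 6.85 to 6.33. Zbtb46 went from -4.26 to 0.59 there and Flt3 from -4.39 to -4.45. From 0 to 24 h in KO macrophages S100a9 went from 3.08 to -0.35 and Camp from -3.72 to -2.84. The part of these markers in the results below was not tested. In RNA from whole cultures, fewer cells of a type and less RNA per cell cannot be told apart. Replicate 1 of every group was scanned in the first session and replicate 2 in the second.

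In the fit without the replicate number, a minority of the 39 genes was called against 0 h at each time, in both directions. At 6 h 10 genes were higher and 5 lower than at 0 h with the genotypes averaged (limma, adjusted p under 0.05 over 17669 genes), which is 38.5% of the 39 genes. Over all tested genes 40.7% were called at 6 h, 19.5% higher and 21.2% lower, so the share among the 39 genes was close to the background. At 12 h 7 genes were higher and 6 lower, 13 in all, against a background of 34.5% (16.9% higher, 17.6% lower). By 24 h 3 were higher and 4 lower, 7 in all, against a background of 22.8% (11% higher, 11.8% lower). The median change of the 39 genes was 0.03, -0.09 and -0.05 log2 at 6, 12 and 24 h, and the median over all tested genes was 0.05, 0.03 and -0.03. These 3 comparisons share the 0 h arrays and are not independent of each other. With the replicate number as a term in the fit, the counts were 18 at 6 h, 21 at 12 h and 17 at 24 h, where the backgrounds were 59.5%, 53.3% and 41.9%. The counts of 18 and 21 include Egln3, which passed the filter on dim probes through the 0 h groups alone. Within the slides that held both times of a genotype, the called genes had the called sign in 15 of 15 cases at 6 h (each of 3 slides), 13 of 13 at 12 h (1 slide) and 7 of 7 at 24 h (each of 2 slides). The calls were made from these same arrays, so this describes the values by slide and is no further support.

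Promoters of the genes were read for the core of the sequence that hypoxia-inducible factor binds, ACGTG, on either strand. The window was 300 bases long and covered each annotated start (RefSeq, GRCm38.p6), most of it upstream, and all 40 genes matched an entry, with 60 promoters. The core was found in 26 of the 60 (43.3%), against 6447 of all 32851 promoters (19.6%), and in at least 1 promoter of 22 of the 40 genes (55%), against 21.8% of all genes. By the calls at 6 h, the core was in at least 1 promoter of 8 of 10 genes that rose, 4 of 5 that fell and 10 of 24 not called. Its relation to the direction of change was not tested. A match shows only that the letters are there. Shown are the promoters of the genes with the 2 largest rises, of Slc2a1, and of Ldha, which holds the core several times and was not called. Capitals mark the core, or CACGTG where the core on both strands overlaps in that palindrome.
Slc2a6 (chr2:27027949-27028248, minus strand): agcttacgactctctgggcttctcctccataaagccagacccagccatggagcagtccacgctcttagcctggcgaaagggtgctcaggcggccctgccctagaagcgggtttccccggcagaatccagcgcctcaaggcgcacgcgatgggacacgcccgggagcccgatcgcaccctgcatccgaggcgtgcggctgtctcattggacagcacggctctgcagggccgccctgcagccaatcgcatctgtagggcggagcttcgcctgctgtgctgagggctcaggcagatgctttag
Pfkfb3, upstream start (chr2:11553880-11554179, minus strand): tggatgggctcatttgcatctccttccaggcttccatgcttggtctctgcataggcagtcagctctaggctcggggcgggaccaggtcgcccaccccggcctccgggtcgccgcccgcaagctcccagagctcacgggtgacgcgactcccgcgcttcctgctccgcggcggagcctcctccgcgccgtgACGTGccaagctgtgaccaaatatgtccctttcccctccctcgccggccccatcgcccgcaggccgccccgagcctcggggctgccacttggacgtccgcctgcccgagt
Pfkfb3, downstream start (chr2:11502041-11502340, minus strand): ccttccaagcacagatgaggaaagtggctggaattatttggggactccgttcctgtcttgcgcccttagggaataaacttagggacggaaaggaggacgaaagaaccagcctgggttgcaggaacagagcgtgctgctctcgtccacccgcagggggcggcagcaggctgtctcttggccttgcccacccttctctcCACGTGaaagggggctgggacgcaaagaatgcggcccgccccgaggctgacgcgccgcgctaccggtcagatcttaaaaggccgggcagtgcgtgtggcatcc
Slc2a1 (chr4:119108495-119108794, plus strand): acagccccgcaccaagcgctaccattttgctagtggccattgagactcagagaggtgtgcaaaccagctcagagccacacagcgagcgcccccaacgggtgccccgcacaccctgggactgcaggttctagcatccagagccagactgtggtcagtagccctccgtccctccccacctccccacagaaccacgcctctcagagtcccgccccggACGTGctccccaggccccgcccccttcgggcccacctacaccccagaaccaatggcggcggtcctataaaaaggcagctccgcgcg
Ldha, upstream start (chr7:46845554-46845853, plus strand): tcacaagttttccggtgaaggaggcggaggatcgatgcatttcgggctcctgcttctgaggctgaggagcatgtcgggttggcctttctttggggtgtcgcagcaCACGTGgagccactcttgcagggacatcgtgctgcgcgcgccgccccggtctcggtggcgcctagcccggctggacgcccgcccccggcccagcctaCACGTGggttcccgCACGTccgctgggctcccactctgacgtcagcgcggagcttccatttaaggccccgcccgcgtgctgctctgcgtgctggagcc
The Slc2a6 window holds no match, both Pfkfb3 windows hold the core, and the Ldha window shown holds the palindrome in 2 places and a further match on the minus strand. A second Ldha window, at the downstream start (chr7:46846832-46847131), holds none and is not printed.

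Glucose and lactate transporters gave the largest rise in the set. Slc2a6, whose promoter is printed above without a match, encodes a transporter of the glucose transporter family (probe at chr2:26877148-26877207, mm9). In KO macrophages Slc2a6 read 1.49 and 1.81 at 0 h, 7.39 and 7.82 at 6 h, 6.99 and 7.34 at 12 h, and 4.61 and 5.77 at 24 h. WT macrophages gave Slc2a6 levels of 1.35 and 1.93 at 0 h, 7.57 and 7.47 at 6 h, 7.01 and 7.66 at 12 h, and 5.07 and 6.06 at 24 h. Every LPS array was above every 0 h array, and the level was lower at 24 h than at 6 or 12 h on every array. The change was 5.92 ± 0.32 log2 at 6 h (60.4-fold, adjusted p = 6.28e-07), 5.60 ± 0.32 at 12 h (adjusted p = 1.2e-06) and 3.73 ± 0.32 at 24 h (13.3-fold, adjusted p = 2.47e-05; SE, 4 arrays per time). From 6 to 24 h it fell by 2.18 on the log2 scale (adjusted p = 0.00089).

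Slc2a1 encodes GLUT1, the main glucose importer of many cells (probe at chr4:118809864-118809923, mm9). In KO macrophages Slc2a1 read 2.51 and 2.35 at 0 h, 5.36 and 3.87 at 6 h, 4.26 and 3.62 at 12 h, and 3.58 and 3.21 at 24 h. WT macrophages gave Slc2a1 levels of 3.09 and 2.44 at 0 h, 4.96 and 3.44 at 6 h, 4.58 and 3.76 at 12 h, and 3.81 and 3.44 at 24 h. The LPS arrays were above all 0 h arrays at each time, and the first session's 6 h arrays were more than 1 log2 unit above the second session's. The 6 h change was 1.81 ± 0.42 log2 (3.51-fold, adjusted p = 0.00546), 2.37 in the first scan session and 1.26 in the second. At 12 h the change was 1.46 ± 0.42 (adjusted p = 0.0204). Slc2a1 lost the 12 h call without KO 0 h replicate 2, KO 12 h replicate 1, WT 0 h replicate 2 or WT 12 h replicate 1, each left out alone (1.25 to 1.42, adjusted p = 0.0565 to 0.0714), and under quantile normalization (1.103, adjusted p = 0.074). The 24 h change of 0.91 ± 0.42 was not called (adjusted p = 0.152; 95% interval -0.01 to 1.84), but was with the replicate block (adjusted p = 0.0128) and with arrays scaled to their median (1.24, adjusted p = 0.0166).

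Slc16a1 encodes a carrier that moves lactate and pyruvate with a proton across the plasma membrane (probe at chr3:104460941-104461000, mm9). In KO macrophages Slc16a1 read -0.69 and 0.16 at 0 h, 0.92 and 0.55 at 6 h, -0.40 and -0.21 at 12 h, and -1.04 and -1.87 at 24 h. WT macrophages gave Slc16a1 levels of -0.65 and 0.46 at 0 h, 1.35 and 0.90 at 6 h, 0.07 and -0.15 at 12 h, and -1.47 and -1.73 at 24 h. Its level was above the 0 h arrays at 6 h, back among them at 12 h and below all of them at 24 h. The changes were 1.11 ± 0.31 at 6 h (adjusted p = 0.0157), 0.01 ± 0.31 at 12 h (adjusted p = 0.992) and -1.35 ± 0.31 at 24 h (adjusted p = 0.0103). The size differed between sessions: the 6 h change was 1.80 in the first scan session and 0.41 in the second, and the 24 h change -0.58 in the first scan session and -2.12 in the second. Slc16a1 lost the 6 h call without KO 0 h replicate 1, KO 6 h replicate 1, WT 0 h replicate 1 or WT 6 h replicate 1, each left out alone (0.83 to 1.01, adjusted p = 0.0524 to 0.0601), and the 24 h call with arrays scaled to their median (-1.03, adjusted p = 0.116). For Slc16a3, the lactate exporter of glycolytic cells, no change was called, with 0.55 ± 0.83, 0.06 ± 0.83 and 0.50 ± 0.83 log2 at 6, 12 and 24 h. Its 6 h interval, -1.28 to 2.38, was wide, and its level in the second session was lower by 1.73 log2 on average.

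All 3 hexokinases, which trap glucose in the cell by phosphorylating it, were higher at 6 h, while Gpi1, the isomerase of the next step, was not called at any time. Hk3 probes chr13:55107900-55107959 (mm9). In KO macrophages Hk3 read 3.72 and 5.22 at 0 h, 6.12 and 6.50 at 6 h, 6.25 and 6.88 at 12 h, and 5.36 and 6.59 at 24 h. WT macrophages gave Hk3 levels of 4.53 and 5.22 at 0 h, 6.38 and 6.19 at 6 h, 6.75 and 7.30 at 12 h, and 5.88 and 6.61 at 24 h. No LPS array fell among the 0 h arrays at any time. Hk3 was higher by 1.62 ± 0.40 log2 at 6 h (adjusted p = 0.00769), 2.12 ± 0.40 at 12 h (4.35-fold, adjusted p = 0.00209) and 1.44 ± 0.40 at 24 h (adjusted p = 0.0252). Hk3 lost the 24 h call without KO 0 h replicate 1, KO 24 h replicate 2, WT 0 h replicate 1 or WT 24 h replicate 2, each left out alone (1.06 to 1.26, adjusted p = 0.0799 to 0.0985). Under quantile normalization the 6 h change of Hk3 was 0.88 (adjusted p = 0.098) and the 24 h change 1.17 (adjusted p = 0.056), and with arrays scaled to their median the 24 h change was larger but not called (1.76, adjusted p = 0.0728).

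Hk1, the hexokinase of most tissues, was probed at chr10:61731916-61731975 (mm9). In KO macrophages Hk1 read 3.89 and 3.89 at 0 h, 5.23 and 5.47 at 6 h, 4.46 and 5.35 at 12 h, and 3.70 and 4.47 at 24 h. WT macrophages gave Hk1 levels of 3.78 and 3.94 at 0 h, 5.12 and 5.57 at 6 h, 4.55 and 5.66 at 12 h, and 4.15 and 4.83 at 24 h. It was above every 0 h array at 6 and 12 h and overlapped the 0 h arrays at 24 h. The change was 1.47 ± 0.32 log2 at 6 h (2.77-fold, adjusted p = 0.00393), 1.13 ± 0.32 at 12 h (adjusted p = 0.0195) and 0.41 ± 0.32 at 24 h (adjusted p = 0.415). Hk1 lost the 12 h call without KO 0 h replicate 2, KO 12 h replicate 2, WT 0 h replicate 1 or WT 12 h replicate 2, each left out alone (0.85 to 1.13, adjusted p = 0.05 to 0.0812). Under quantile normalization the 6 h change was 0.80 (adjusted p = 0.0358) and the 12 h change 0.62 (adjusted p = 0.101), and with arrays scaled to their median the 12 h change was 1.34 (adjusted p = 0.0917).

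Hk2, the inducible hexokinase of muscle, fat and many tumours, was probed at chr6:82675056-82675115 (mm9). In KO macrophages Hk2 read 2.36 and 0.87 at 0 h, 3.21 and 2.47 at 6 h, 2.87 and 2.70 at 12 h, and 2.96 and 2.15 at 24 h. WT macrophages gave Hk2 levels of 1.90 and 0.93 at 0 h, 2.66 and 2.44 at 6 h, 2.54 and 2.05 at 12 h, and 2.50 and 2.26 at 24 h. Its 6 h arrays lay above all 0 h arrays, the nearest pair being 2.44 in WT at 6 h and 2.36 in KO at 0 h. The 6 h change was 1.18 ± 0.37 log2 (2.27-fold, adjusted p = 0.0253), 0.81 in the first scan session and 1.55 in the second. Hk2 lost this call without KO 0 h replicate 2, KO 6 h replicate 1, WT 0 h replicate 2, WT 6 h replicate 1 or WT 6 h replicate 2, each left out alone (0.81 to 1.24, adjusted p = 0.0516 to 0.0965), and under quantile normalization (0.93, adjusted p = 0.0856). The changes at 12 h (1.03 ± 0.37, adjusted p = 0.0524) and 24 h (0.95 ± 0.37, adjusted p = 0.0906) were not called, but were with the replicate block (adjusted p = 0.00322 and 0.00673). For Gpi1 the changes were -0.47 ± 0.30, -0.73 ± 0.30 and -0.29 ± 0.30 log2 at 6, 12 and 24 h, the first 2 of them called with the replicate block (adjusted p = 0.0233 and 0.00275). Another Gpi1 probe had the opposite sign, with 0.49, 0.23 and 0.30 at the same times, none called in the fit without the block.

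**Figure D1:**
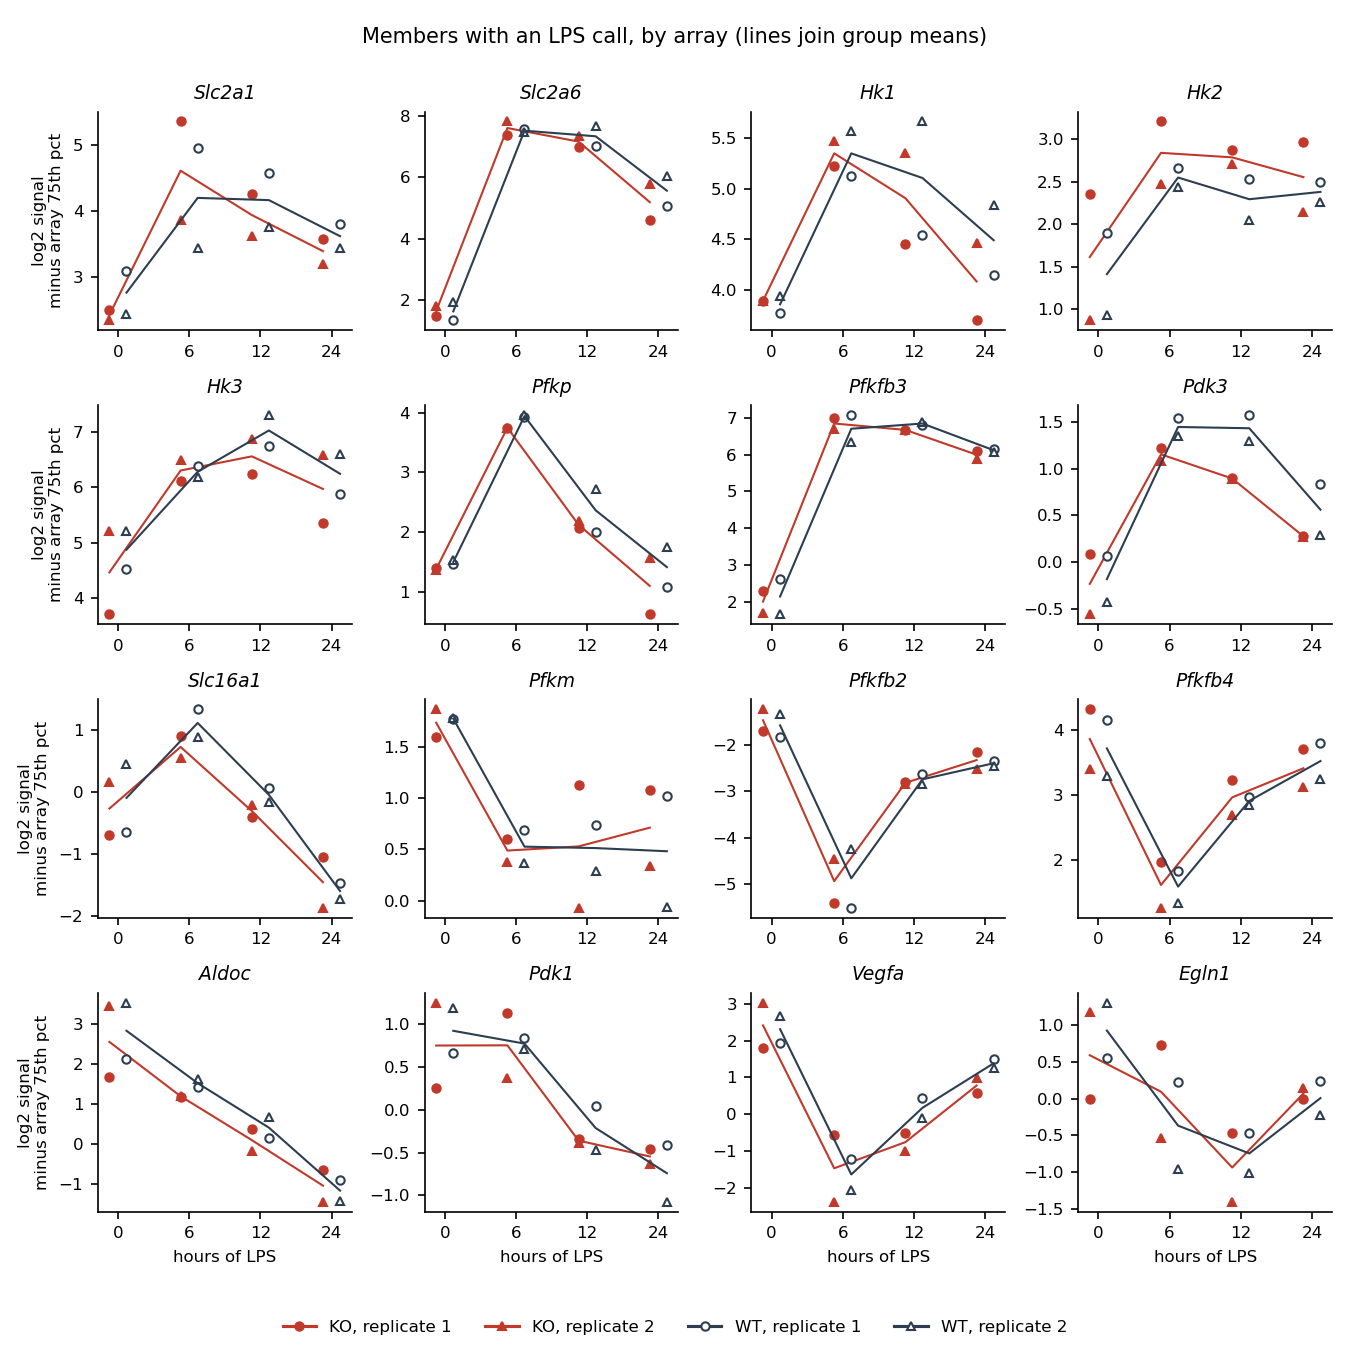
Levels of 16 of the genes on every array (vertical axis, log2 signal minus the array's 75th percentile, with a range of its own in each panel) over 0, 6, 12 and 24 h of LPS (horizontal axis, times evenly spaced), with KO points left of WT points at each time and lines through the group means of 2 arrays. Slc2a6 and Pfkfb3 stood above all 0 h arrays at every time with LPS, and Vegfa and Pfkfb2 were lowest at 6 h.

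Among the phosphofructokinases, which commit sugar to glycolysis, the 3 isoforms did different things. Pfkp, the platelet form, was higher at 6 h, Pfkm, the muscle form, was lower at every time, and Pfkl, the liver form, was not called. In KO macrophages Pfkp read 1.41 and 1.36 at 0 h, 3.74 and 3.75 at 6 h, 2.06 and 2.18 at 12 h, and 0.63 and 1.57 at 24 h. WT macrophages gave Pfkp levels of 1.46 and 1.54 at 0 h, 3.93 and 3.96 at 6 h, 2.01 and 2.72 at 12 h, and 1.08 and 1.75 at 24 h. At 6 h all arrays stood above the 0 h arrays by at least 2 log2 units, and at 24 h the arrays overlapped those of 0 h. The change was 2.40 ± 0.25 log2 at 6 h (5.29-fold, adjusted p = 3.92e-05), 0.80 ± 0.25 at 12 h (adjusted p = 0.0325) and -0.18 ± 0.25 at 24 h (adjusted p = 0.678). Pfkp lost the 12 h call without KO 0 h replicate 1, KO 0 h replicate 2, KO 12 h replicate 1, KO 12 h replicate 2, WT 0 h replicate 1, WT 0 h replicate 2 or WT 12 h replicate 2, each left out alone (0.63 to 0.83, adjusted p = 0.062 to 0.121), and with arrays scaled to their median (1.01, adjusted p = 0.138). The probe's mapped span, chr13:6581718-6583872 (mm9), is longer than a probe and so crosses an intron. A second Pfkp probe gave 0.69 at 6 h (adjusted p = 0.195), 0.12 at 12 h and -0.57 at 24 h, so the 2 probes disagreed on the size of the rise.

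Pfkm was probed at chr15:97962713-97962772 (mm9). In KO macrophages Pfkm read 1.60 and 1.87 at 0 h, 0.60 and 0.38 at 6 h, 1.13 and -0.07 at 12 h, and 1.08 and 0.34 at 24 h. WT macrophages gave Pfkm levels of 1.77 and 1.78 at 0 h, 0.69 and 0.36 at 6 h, 0.73 and 0.29 at 12 h, and 1.02 and -0.06 at 24 h. Every LPS array was below every 0 h array. Pfkm changed by -1.25 ± 0.33 log2 at 6 h (0.422-fold, adjusted p = 0.0112), -1.23 ± 0.33 at 12 h (adjusted p = 0.0141) and -1.16 ± 0.33 at 24 h (adjusted p = 0.0279). Pfkm lost the 12 h call without KO 12 h replicate 2 or WT 12 h replicate 2, each left out alone (-1.12 to -0.93, adjusted p = 0.0536 to 0.0569). At 24 h Pfkm was not called without KO 0 h replicate 1, KO 0 h replicate 2, KO 24 h replicate 2, WT 0 h replicate 1, WT 0 h replicate 2 or WT 24 h replicate 2, each left out alone (-1.22 to -0.89, adjusted p = 0.0507 to 0.11), nor with arrays scaled to their median (-0.83, adjusted p = 0.0994). Pfkl gave changes of 0.62 ± 0.55, 0.41 ± 0.55 and 0.66 ± 0.55 log2 at the 3 times, none called, with a level lower by 1.003 log2 in the second session.

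The bifunctional enzymes of the Pfkfb family make and remove fructose bisphosphate of the kind that activates phosphofructokinase. Their 4 genes split: Pfkfb3, whose product favours synthesis of the activator, rose, Pfkfb2 and Pfkfb4 fell, and Pfkfb1, the liver form, was not called. Pfkfb3 was probed at chr2:11393579-11393638 (mm9). In KO macrophages Pfkfb3 read 2.31 and 1.71 at 0 h, 6.98 and 6.71 at 6 h, 6.67 and 6.67 at 12 h, and 6.10 and 5.89 at 24 h. WT macrophages gave Pfkfb3 levels of 2.62 and 1.67 at 0 h, 7.07 and 6.33 at 6 h, 6.80 and 6.88 at 12 h, and 6.15 and 6.08 at 24 h. All 12 LPS arrays lay above all 4 of 0 h by more than 3 log2 units. The change was 4.69 ± 0.26 log2 at 6 h (25.8-fold, adjusted p = 6.28e-07), 4.67 ± 0.26 at 12 h (25.5-fold, adjusted p = 9.99e-07) and 3.98 ± 0.26 at 24 h (15.7-fold, adjusted p = 4.73e-06). The other 2 probes of the gene gave 4.73 and 4.31 at 6 h. The 24 h level was below the 6 h level by 0.71 log2 (adjusted p = 0.065; adjusted p = 0.0118 with the replicate block).

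Pfkfb4 (chr9:108934627-108934686, mm9) ran the other way at 6 h. In KO macrophages Pfkfb4 read 4.33 and 3.40 at 0 h, 1.97 and 1.27 at 6 h, 3.23 and 2.70 at 12 h, and 3.71 and 3.12 at 24 h. WT macrophages gave Pfkfb4 levels of 4.15 and 3.29 at 0 h, 1.84 and 1.35 at 6 h, 2.98 and 2.85 at 12 h, and 3.80 and 3.25 at 24 h. The 6 h arrays were all below those of 0 h, and the 24 h arrays overlapped them. It fell by 2.19 on the log2 scale at 6 h (SE 0.31, 0.22-fold, adjusted p = 0.000303). Changes of -0.85 ± 0.31 at 12 h (adjusted p = 0.059) and -0.32 ± 0.31 at 24 h (adjusted p = 0.531) were not called, though the first was with the replicate block (adjusted p = 0.000882) and under quantile normalization (-1.26, adjusted p = 0.0149).

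Pfkfb2 (chr1:132586122-132586181, mm9), the form best known from heart, was dim. In KO macrophages Pfkfb2 read -1.71 and -1.23 at 0 h, -5.42 and -4.46 at 6 h, -2.80 and -2.84 at 12 h, and -2.14 and -2.51 at 24 h. WT macrophages gave Pfkfb2 levels of -1.83 and -1.32 at 0 h, -5.51 and -4.24 at 6 h, -2.63 and -2.85 at 12 h, and -2.34 and -2.45 at 24 h. It was lowest at 6 h, where 1 of the 2 arrays of each genotype was not well above background, and below the 0 h arrays at all 3 times. The 6 h change was -3.38 ± 0.31 log2 (0.0959-fold, adjusted p = 1.67e-05), the 12 h change -1.26 ± 0.31 (adjusted p = 0.0104) and the 24 h change -0.84 ± 0.31 (adjusted p = 0.0823; adjusted p = 0.0328 with the replicate block). Its size depended on the probe: another probe of the same transcript gave -3.62 at 6 h, and 2 probes of another RefSeq transcript gave -1.15 (adjusted p = 0.0512) and -1.81 (adjusted p = 0.0356). Restricted to probes well above background on all 16 arrays, the gene was read by another probe, with -1.15 at 6 h (adjusted p = 0.0421) and -0.71 at 12 h (adjusted p = 0.209). The 12 h call was also lost under quantile normalization (-1.07, adjusted p = 0.115) and median scaling (-1.04, adjusted p = 0.142). Pfkfb1 gave changes of -0.32 ± 0.33, -0.34 ± 0.33 and -0.26 ± 0.33 log2.

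Most enzymes between fructose bisphosphate and pyruvate were bright and were not called. Of 9 such genes, Pgk1 was higher and Aldoc lower at 6 h, Aldoc alone was called at 12 and 24 h, and 7 were called at no time. Gapdh encodes the glyceraldehyde phosphate dehydrogenase that is often taken as a loading reference (chr6:125112515-125112573, mm9). In KO macrophages Gapdh read 7.44 and 7.25 at 0 h, 7.57 and 7.41 at 6 h, 7.61 and 7.09 at 12 h, and 7.43 and 7.49 at 24 h. WT macrophages gave Gapdh levels of 7.58 and 7.17 at 0 h, 7.60 and 7.12 at 6 h, 7.31 and 7.22 at 12 h, and 7.38 and 7.06 at 24 h. Its values overlapped at all times, with a 6 h change of 0.07 ± 0.20 log2 (95% interval -0.37 to 0.51, adjusted p = 0.818). For Aldoa, Tpi1, Pgam1, Eno1, Eno2 and Pkm2, which encode an aldolase, triose phosphate isomerase, phosphoglycerate mutase, 2 enolases and the muscle-type pyruvate kinase, changes over the 3 times ranged from -0.35 (Pgam1 at 6 h) to 0.51 (Eno2 at 24 h).

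Pgk1 encodes phosphoglycerate kinase, the first enzyme of glycolysis to yield ATP. In KO macrophages Pgk1 read 6.13 and 6.23 at 0 h, 6.98 and 6.69 at 6 h, 6.94 and 6.41 at 12 h, and 6.34 and 6.37 at 24 h. WT macrophages gave Pgk1 levels of 6.36 and 6.35 at 0 h, 6.91 and 6.61 at 6 h, 6.59 and 6.55 at 12 h, and 6.30 and 6.25 at 24 h. The 6 h arrays were above all 0 h arrays. The change was 0.53 ± 0.18 log2 at 6 h (1.45-fold, adjusted p = 0.0329), 0.36 ± 0.18 at 12 h (adjusted p = 0.147) and 0.05 ± 0.18 at 24 h (adjusted p = 0.889). Pgk1 lost the 6 h call without KO 0 h replicate 1, KO 0 h replicate 2, KO 6 h replicate 1, WT 0 h replicate 1, WT 0 h replicate 2 or WT 6 h replicate 1, each left out alone (0.46 to 0.56, adjusted p = 0.063 to 0.108). It also lost it with arrays scaled to their median (0.65, adjusted p = 0.141) and with no filter on dim probes (adjusted p = 0.0572), and the sign turned under quantile normalization (-0.22, adjusted p = 0.387).

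Aldoc, the aldolase best known from brain, had the largest fall at 24 h (chr11:78139964-78140023, mm9). In KO macrophages Aldoc read 1.66 and 3.43 at 0 h, 1.18 and 1.20 at 6 h, 0.38 and -0.19 at 12 h, and -0.64 and -1.44 at 24 h. WT macrophages gave Aldoc levels of 2.13 and 3.52 at 0 h, 1.42 and 1.62 at 6 h, 0.14 and 0.68 at 12 h, and -0.91 and -1.42 at 24 h. Its level was lower at each later time within both replicates of each genotype, and every LPS array was below every 0 h array. Aldoc changed by -1.33 ± 0.42 log2 at 6 h (adjusted p = 0.0285), -2.43 ± 0.42 at 12 h (0.185-fold, adjusted p = 0.00141) and -3.79 ± 0.42 at 24 h (0.0725-fold, adjusted p = 0.000134). The 24 h change was -2.67 in the first scan session and -4.90 in the second, and a second probe gave -2.37, -3.83 and -5.07 at the 3 times. Aldoc lost the 6 h call without KO 0 h replicate 2, KO 6 h replicate 1, KO 6 h replicate 2, WT 0 h replicate 2, WT 6 h replicate 1 or WT 6 h replicate 2, each left out alone (-1.38 to -0.89, adjusted p = 0.0592 to 0.109), and with arrays scaled to their median (-1.21, adjusted p = 0.114).

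Neither lactate dehydrogenase was called. Ldha encodes the subunit that favours the step to lactate (chr7:54110889-54110948, mm9). In KO macrophages Ldha read 7.03 and 6.84 at 0 h, 7.60 and 7.01 at 6 h, 7.54 and 6.89 at 12 h, and 6.91 and 7.03 at 24 h. WT macrophages gave Ldha levels of 7.14 and 6.77 at 0 h, 7.37 and 7.06 at 6 h, 7.46 and 6.98 at 12 h, and 6.61 and 7.04 at 24 h. The arrays of all times overlapped, with changes of 0.32 ± 0.23 (95% interval -0.21 to 0.84), 0.27 ± 0.23 and -0.05 ± 0.23 log2 at 6, 12 and 24 h. Within session and genotype Ldha was above 0 h in 4 of 4 pairs at 6 h and at 12 h. With the replicate block it was still not called (adjusted p = 0.175 at 6 h and 0.251 at 12 h), and under quantile normalization the sign turned (-0.42 at 6 h, adjusted p = 0.19, and -0.29 at 12 h, adjusted p = 0.392). Ldhb, the subunit of tissues that burn lactate, differed by -2.43 log2 between the second session and the first. In KO macrophages Ldhb read 3.52 and 0.80 at 0 h, 3.10 and 0.86 at 6 h, 2.03 and 0.32 at 12 h, and 1.95 and -0.56 at 24 h. WT macrophages gave Ldhb levels of 3.19 and 0.72 at 0 h, 2.995 and 0.18 at 6 h, 1.73 and -0.39 at 12 h, and 1.32 and -1.55 at 24 h. Within each session its level was lower at 12 and 24 h than at 0 h in both genotypes. The changes of -1.13 ± 1.09 at 12 h (adjusted p = 0.476) and -1.77 ± 1.09 at 24 h (adjusted p = 0.293) were called with the replicate block (adjusted p = 0.000932 and 8.86e-05).

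The 6 genes of the pentose phosphate pathway were not called at any time against 0 h. G6pdx encodes glucose phosphate dehydrogenase, which controls entry into the pathway (chrX:71654949-71655008, mm9). In KO macrophages G6pdx read 5.77 and 5.50 at 0 h, 5.49 and 5.30 at 6 h, 6.20 and 5.46 at 12 h, and 6.13 and 6.29 at 24 h. WT macrophages gave G6pdx levels of 5.50 and 5.28 at 0 h, 5.67 and 5.30 at 6 h, 5.98 and 5.56 at 12 h, and 6.09 and 5.90 at 24 h. Its 24 h arrays lay above all 0 h arrays, while the 6 h arrays overlapped them. The 24 h change was 0.59 ± 0.21 log2 (95% interval 0.11 to 1.06, adjusted p = 0.0754; adjusted p = 0.0111 with the replicate block). Against 6 h the 24 h level was higher by 0.66 ± 0.21 (adjusted p = 0.0435). G6pdx lost that call without KO 0 h replicate 1, KO 0 h replicate 2, KO 6 h replicate 1, KO 6 h replicate 2, KO 24 h replicate 1, KO 24 h replicate 2, WT 0 h replicate 1, WT 0 h replicate 2, WT 6 h replicate 1, WT 6 h replicate 2, WT 24 h replicate 1 or WT 24 h replicate 2, each left out alone (0.57 to 0.75, adjusted p = 0.0535 to 0.134). It was also lost with arrays scaled to their median (0.87, adjusted p = 0.0629) and with no filter on dim probes (adjusted p = 0.0743), while under quantile normalization the difference was 1.095.

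For Pgd and Pgls, the next enzymes of the oxidative branch, the 6 h changes were 0.03 ± 0.43 and -0.42 ± 0.25 log2. Tkt and Taldo1, the transketolase and transaldolase that link the pathway back to glycolysis, were at -0.41 ± 0.20 (adjusted p = 0.18) and -0.79 ± 0.47 (adjusted p = 0.28) at 24 h. Both 24 h values were called with the replicate block (adjusted p = 0.0408 and 0.00151), as was Taldo1 at 12 h (-0.59 ± 0.47, adjusted p = 0.00552) and Pgls at 12 h (-0.49 ± 0.25, adjusted p = 0.0374). A second Tkt probe gave -1.20 at 24 h (adjusted p = 0.0266). Rpia, which interconverts the pentose phosphates, gave a change of -0.50 ± 0.30 log2 at 6 h (adjusted p = 0.22; adjusted p = 0.0155 with the replicate block).

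**Figure D2:**
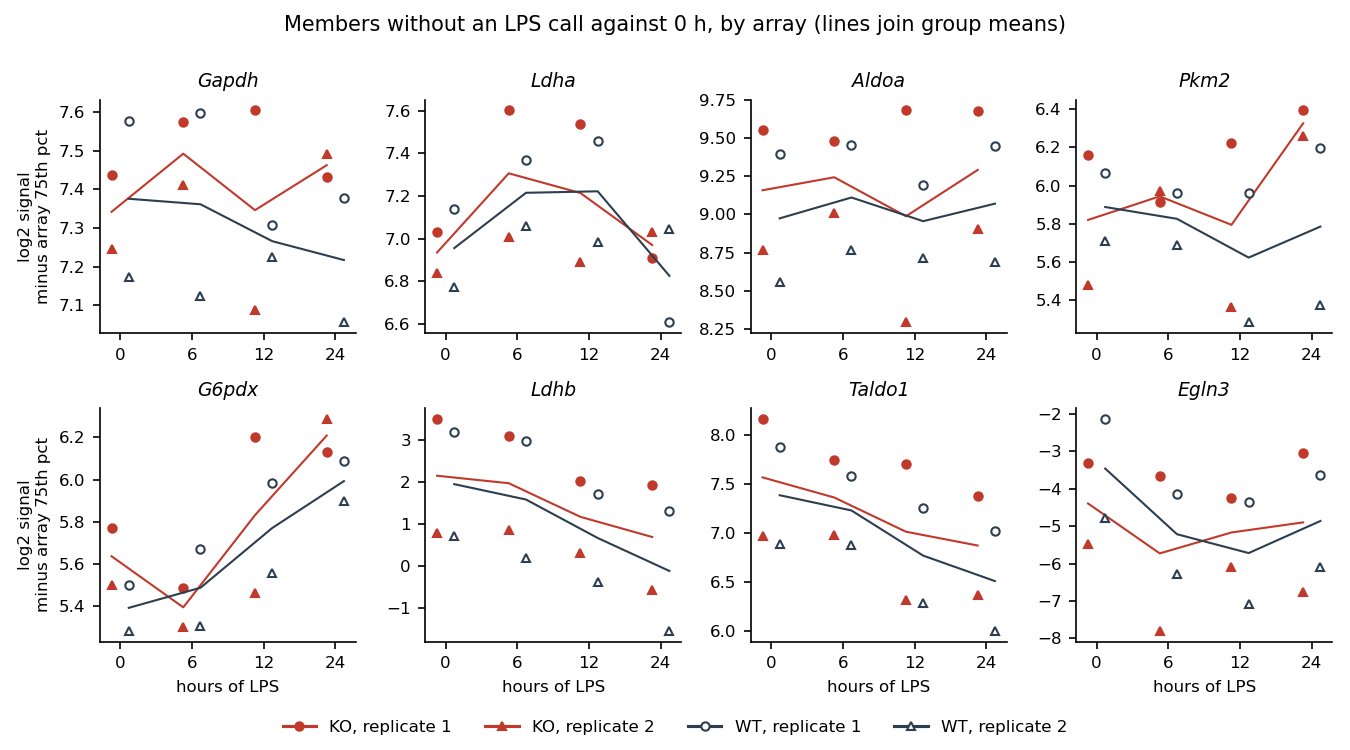
Levels of 8 genes that were not called against 0 h, on every array (vertical axis, log2 signal minus the array's 75th percentile, with a range of its own in each panel) over 0, 6, 12 and 24 h of LPS (horizontal axis, times evenly spaced), with KO left of WT at each time circles for replicate 1 (the first scan session), triangles for replicate 2 (the second) and lines through the group means. Gapdh and Ldha overlapped across times, and for Ldhb and Egln3 the sessions lay apart by 2.43 and 2.74 log2.

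Pyruvate enters mitochondrial oxidation through pyruvate dehydrogenase, whose alpha subunit Pdha1 encodes and which the kinases of Pdk1 and Pdk3 switch off. The 2 kinases were called in opposite directions at 12 h, while at 6 h only Pdk3 and at 24 h only Pdk1 was called against 0 h. Pdk3 (chrX:91010227-91010286, mm9) was higher with LPS. In KO macrophages Pdk3 read 0.09 and -0.56 at 0 h, 1.23 and 1.08 at 6 h, 0.90 and 0.89 at 12 h, and 0.28 and 0.27 at 24 h. WT macrophages gave Pdk3 levels of 0.06 and -0.43 at 0 h, 1.54 and 1.35 at 6 h, 1.57 and 1.30 at 12 h, and 0.83 and 0.29 at 24 h. All LPS arrays lay above all 0 h arrays. The change was 1.51 ± 0.21 log2 at 6 h (2.85-fold, adjusted p = 0.000276), 1.37 ± 0.21 at 12 h (adjusted p = 0.000691) and 0.63 ± 0.21 at 24 h (adjusted p = 0.0599; adjusted p = 0.00728 with the replicate block).

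Pdk1, a known target of hypoxia-inducible factor, was probed at chr2:71739688-71739747 (mm9). In KO macrophages Pdk1 read 0.25 and 1.25 at 0 h, 1.13 and 0.38 at 6 h, -0.34 and -0.38 at 12 h, and -0.46 and -0.63 at 24 h. WT macrophages gave Pdk1 levels of 0.66 and 1.18 at 0 h, 0.84 and 0.71 at 6 h, 0.04 and -0.47 at 12 h, and -0.41 and -1.07 at 24 h. The 6 h arrays overlapped those of 0 h, and the 12 and 24 h arrays were all below them. At 6 h the change was -0.07 ± 0.29 log2 (adjusted p = 0.865) and ran opposite ways by session (0.53 in the first scan session and -0.67 in the second). Pdk1 changed by -1.12 ± 0.29 at 12 h (adjusted p = 0.0118) and -1.48 ± 0.29 at 24 h (0.359-fold, adjusted p = 0.00409), calls that were lost with arrays scaled to their median (-0.91, adjusted p = 0.102, and -1.15, adjusted p = 0.0601). A second probe gave -0.73, -1.55 and -1.55 at the 3 times. Pdha1 was not called, with 0.56 ± 0.32 at 12 h and 0.65 ± 0.32 at 24 h, both called with the replicate block (adjusted p = 0.00863 and 0.00555). Another Pdha1 probe gave 0.17 at 12 h and -0.15 at 24 h, neither called in the fit without the block.

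Of 4 tested genes of the low-oxygen response none was called higher than at 0 h, Vegfa was lower at 6 and 12 h, and Egln1 was lower at 12 h. Vegfa encodes the vascular growth factor that hypoxia induces in many cells (chr17:46154387-46154446, mm9). In KO macrophages Vegfa read 1.80 and 3.03 at 0 h, -0.57 and -2.38 at 6 h, -0.52 and -1.002 at 12 h, and 0.57 and 0.99 at 24 h. WT macrophages gave Vegfa levels of 1.95 and 2.68 at 0 h, -1.22 and -2.07 at 6 h, 0.45 and -0.11 at 12 h, and 1.51 and 1.26 at 24 h. Every LPS array was below every 0 h array, and the 24 h arrays were nearest to them. Vegfa changed by -3.92 ± 0.43 log2 at 6 h (0.0658-fold, adjusted p = 4.98e-05), with -2.77 in the first scan session and -5.08 in the second. At 12 h the change was -2.66 ± 0.43 (adjusted p = 0.000891), and at 24 h -1.28 ± 0.43 (adjusted p = 0.0562; adjusted p = 0.0352 with the replicate block). The 4 Vegfa probes gave 6 h changes of -2.21 to -3.92.

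Egln1 and Egln3 encode prolyl hydroxylases that mark hypoxia-inducible factor for destruction. In KO macrophages Egln1 read -0.0027 and 1.18 at 0 h, 0.73 and -0.54 at 6 h, -0.47 and -1.40 at 12 h, and -0.0022 and 0.14 at 24 h. WT macrophages gave Egln1 levels of 0.55 and 1.30 at 0 h, 0.22 and -0.96 at 6 h, -0.47 and -1.02 at 12 h, and 0.24 and -0.23 at 24 h. All 12 h arrays were below all 0 h arrays, while those of 6 and 24 h overlapped them. Egln1 changed by -1.60 ± 0.42 at 12 h (adjusted p = 0.0132), -0.75 in the first scan session and -2.45 in the second. Egln1 lost the 12 h call without KO 0 h replicate 2, KO 12 h replicate 2, WT 0 h replicate 2 or WT 12 h replicate 2, each left out alone (-1.46 to -1.30, adjusted p = 0.0504 to 0.0565). At 6 h the change was -0.89 ± 0.42 (adjusted p = 0.116) and differed in sign between sessions (0.20 in the first scan session and -1.99 in the second).

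Egln3 (chr12:55280953-55281012, mm9) was dim, well above background on 10 of 16 arrays, which were both arrays of each 0 h group and 1 of 2 in every other group. In KO macrophages Egln3 read -3.30 and -5.48 at 0 h, -3.65 and -7.80 at 6 h, -4.25 and -6.08 at 12 h, and -3.03 and -6.76 at 24 h. WT macrophages gave Egln3 levels of -2.12 and -4.79 at 0 h, -4.15 and -6.28 at 6 h, -4.35 and -7.09 at 12 h, and -3.62 and -6.10 at 24 h. The second session lay below the first by 2.74 log2 and the arrays of all times overlapped. The changes of -1.55 ± 1.26 at 6 h (adjusted p = 0.366) and -1.52 ± 1.26 at 12 h (adjusted p = 0.4) were not called. With the replicate block they were (adjusted p = 0.00437 and 0.00556). Because Egln3 passed the filter on dim probes through the 0 h groups alone, these 2 calls are no support for a fall. Bnip3, a mitophagy gene that hypoxia induces, gave changes of 0.27 ± 0.34, -0.08 ± 0.34 and 0.18 ± 0.34 log2, none called.

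Between 6 and 24 h of LPS 11 genes differed, 4 higher and 7 lower at 24 h, against a background of 27% (14.1% higher, 12.9% lower). Higher at 24 h were Vegfa (by 2.64 log2), Pfkfb2 (2.55), Pfkfb4 (1.86) and G6pdx (0.66). The first 3 were genes below their 0 h level at 6 h. Lower at 24 h were Pfkp (-2.59), Slc16a1 (-2.46), Aldoc (-2.45), Slc2a6 (-2.18), Pdk1 (-1.40), Hk1 (-1.06) and Pdk3 (-0.88). Hk1 lost that call without KO 6 h replicate 1, KO 6 h replicate 2, KO 24 h replicate 1, WT 6 h replicate 1, WT 6 h replicate 2 or WT 24 h replicate 1, each left out alone (-1.17 to -0.87, adjusted p = 0.051 to 0.115), and under quantile normalization (-0.68, adjusted p = 0.0942) and median scaling (-0.85, adjusted p = 0.324). Pdk3 lost it under median scaling (-0.68, adjusted p = 0.132). Read by the probe that was well above background on all arrays, the Pfkfb2 difference was 0.75 (adjusted p = 0.195). With the replicate block 18 genes were called, against a background of 48.7%.

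How many genes were called higher or lower depended on how the arrays were scaled. Quantile normalization, which gives all arrays 1 distribution, moved the median of all genes at 6 h by -0.18 log2, to -0.13, and called 7 of the 39 genes higher and 14 lower, 33.3% higher against 66.7% in the counts above. Among all genes called at 6 h, 41.1% were higher under it, against 48.0% before. At 12 h quantile normalization called 5 higher and 14 lower, 26.3% higher against 53.8%, and at 24 h 2 higher and 6 lower, 25% higher against 42.9%. The shares among all genes called were 43.3% against 49.1% at 12 h and 46.5% against 48.4% at 24 h. The share of all tested genes called under quantile normalization is not given here. The counts under it are therefore not read as a result about the 39 genes. Scaling each array to its median moved the median of all genes by 0.12, 0.21 and 0.32 log2 at 6, 12 and 24 h, and at 24 h called 5 higher and 1 lower, 83.3% higher. Among all genes called at 24 h, 59.9% were higher under median scaling. The bright enzymes of lower glycolysis were among those affected: under quantile normalization 6 of 9 were lower at 6 h, with a median change of -0.63 log2. Gapdh was at -0.63 at 6 h under that normalization (adjusted p = 0.0208), Aldoa at -0.57 (adjusted p = 0.0489) and Pgam1 at -1.08 (adjusted p = 0.0106). In the pentose phosphate pathway 3 of 6 were lower at 6 h, with Tkt at -0.84 (adjusted p = 0.0057) and G6pdx at -0.81 (adjusted p = 0.0119). The unscaled 75th percentile was 270.8 to 490.3 scanner units on the 6 h arrays and 354.0 to 729.9 on the 0 h arrays. Whether the lower glycolytic enzymes were called lower at 6 h thus depended on the scaling. Slc2a1, Slc2a6, Slc16a1, Hk1, Pfkfb3, Pfkp and Pdk3 were called higher at 6 h under both other scalings. Vegfa, Pfkfb2, Pfkfb4 and Pfkm were called lower at 6 h under both.

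**Figure D3:**
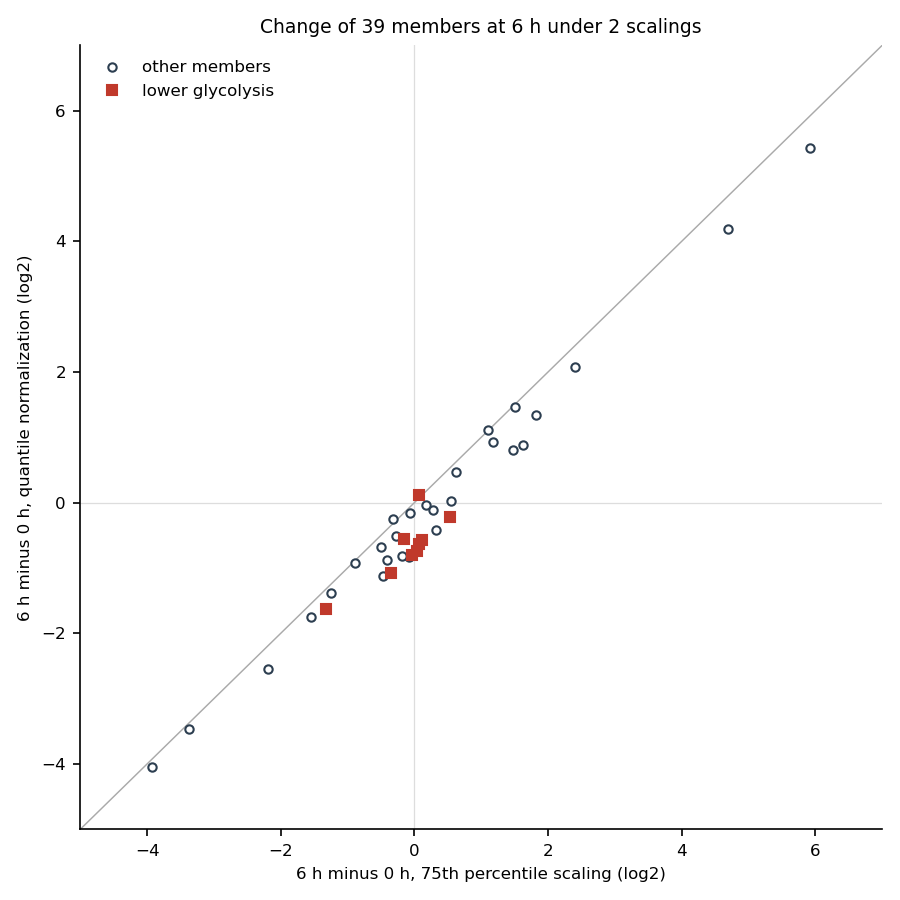
Change at 6 h of LPS minus 0 h (log2, genotypes averaged) of the 39 genes with arrays scaled to the 75th percentile (horizontal axis) and after quantile normalization (vertical axis), each point 1 gene, with the 9 genes of lower glycolysis as squares and the line that of equal values. Most points lie below the line of equality, and Gapdh, at 0.07 on the horizontal axis and -0.63 on the vertical, is one of them.

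No difference between KO and WT macrophages was called for any of these genes. Averaged over the 4 times, 0 of 39 genes were called for KO against WT, and 0 had an unadjusted p under 0.05. The background was 0.017%, 3 of 17669 genes, and 239 genes had an unadjusted p under 0.05. At 0, 6, 12 and 24 h the count was also 0 of 39, with backgrounds of 0%, 0%, 0.0113% and 0%. In the joint F test of whether the LPS response differed between genotypes 0 of 39 genes passed, 0% of all genes did, and the smallest unadjusted p among the 39 was 0.528, for Vegfa. With the replicate block 3 of the 39 had an unadjusted p under 0.05 for the average over times, the smallest being 0.00704 for Ldhb (adjusted p = 0.87), against 5.44% of all genes; 0 of the 39 were called, with a background of 0.0226%. With slide as a term there were also 3 of 39, against 6.82% of all genes.

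In the fit without the replicate block, the 95% interval of KO minus WT included 0 for all 39 genes, which bounds the difference and does not show that there is none. With the block it excluded 0 for 3 genes, none of them called after adjustment over all genes: Ldhb (0.48, interval 0.16 to 0.79), Pdk3 (-0.29, interval -0.53 to -0.06) and Taldo1 (0.23, interval 0.01 to 0.45). Ldhb was higher in KO than in WT macrophages in 8 of 8 pairs of the same time and session. These pairs are the same values that gave the interval, read after Ldhb was seen to have the smallest p, and are no further support. With slide as a term the intervals of Ldhb, Pdk3 and Hk2 excluded 0. Without the block the half-width was 0.28 to 1.98 log2, with a median of 0.50, and the estimates ran from -0.32 for Vegfa to 0.48 for Ldhb. For Pfkfb3 KO minus WT was -0.07 ± 0.18 (95% interval -0.48 to 0.33), for Slc2a6 -0.11 ± 0.23 (95% interval -0.62 to 0.39) and for Slc2a1 -0.09 ± 0.29 (95% interval -0.75 to 0.56). Hk2 gave 0.29 ± 0.26 (95% interval -0.29 to 0.86), Vegfa -0.32 ± 0.30 (95% interval -0.99 to 0.36) and Aldoc -0.20 ± 0.30 (95% interval -0.86 to 0.47). Pdk3 had the smallest unadjusted p, 0.0815, at -0.29 ± 0.15 (95% interval -0.63 to 0.04); its WT arrays were above its KO arrays at 6, 12 and 24 h. Without the block the half-width was under 1 log2 unit for 36 genes. It was larger for Egln3 (interval -2.21 to 1.74), Ldhb (-1.24 to 2.19) and Slc16a3 (-1.13 to 1.46). With the block the interval was -0.80 to 0.34 for Egln3, which was dim, and -0.32 to 0.66 for Slc16a3.

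The changes were also computed within each genotype. At 6 h Slc2a6 changed by 5.95 ± 0.46 log2 in KO and 5.88 ± 0.46 in WT macrophages, and Vegfa by -3.89 ± 0.61 in KO and -3.96 ± 0.61 in WT. Aldoc at 24 h changed by -3.59 ± 0.60 in KO and -3.99 ± 0.60 in WT. In KO macrophages alone 10, 6 and 3 of the 39 genes were called at 6, 12 and 24 h, where 26%, 19.4% and 9.89% of all genes were. WT macrophages alone gave 8, 6 and 4, where 25.4%, 19.3% and 11% of all genes were called. The difference in counts was not tested as such; the joint F test above is the test of the responses.

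**Figure D4:**
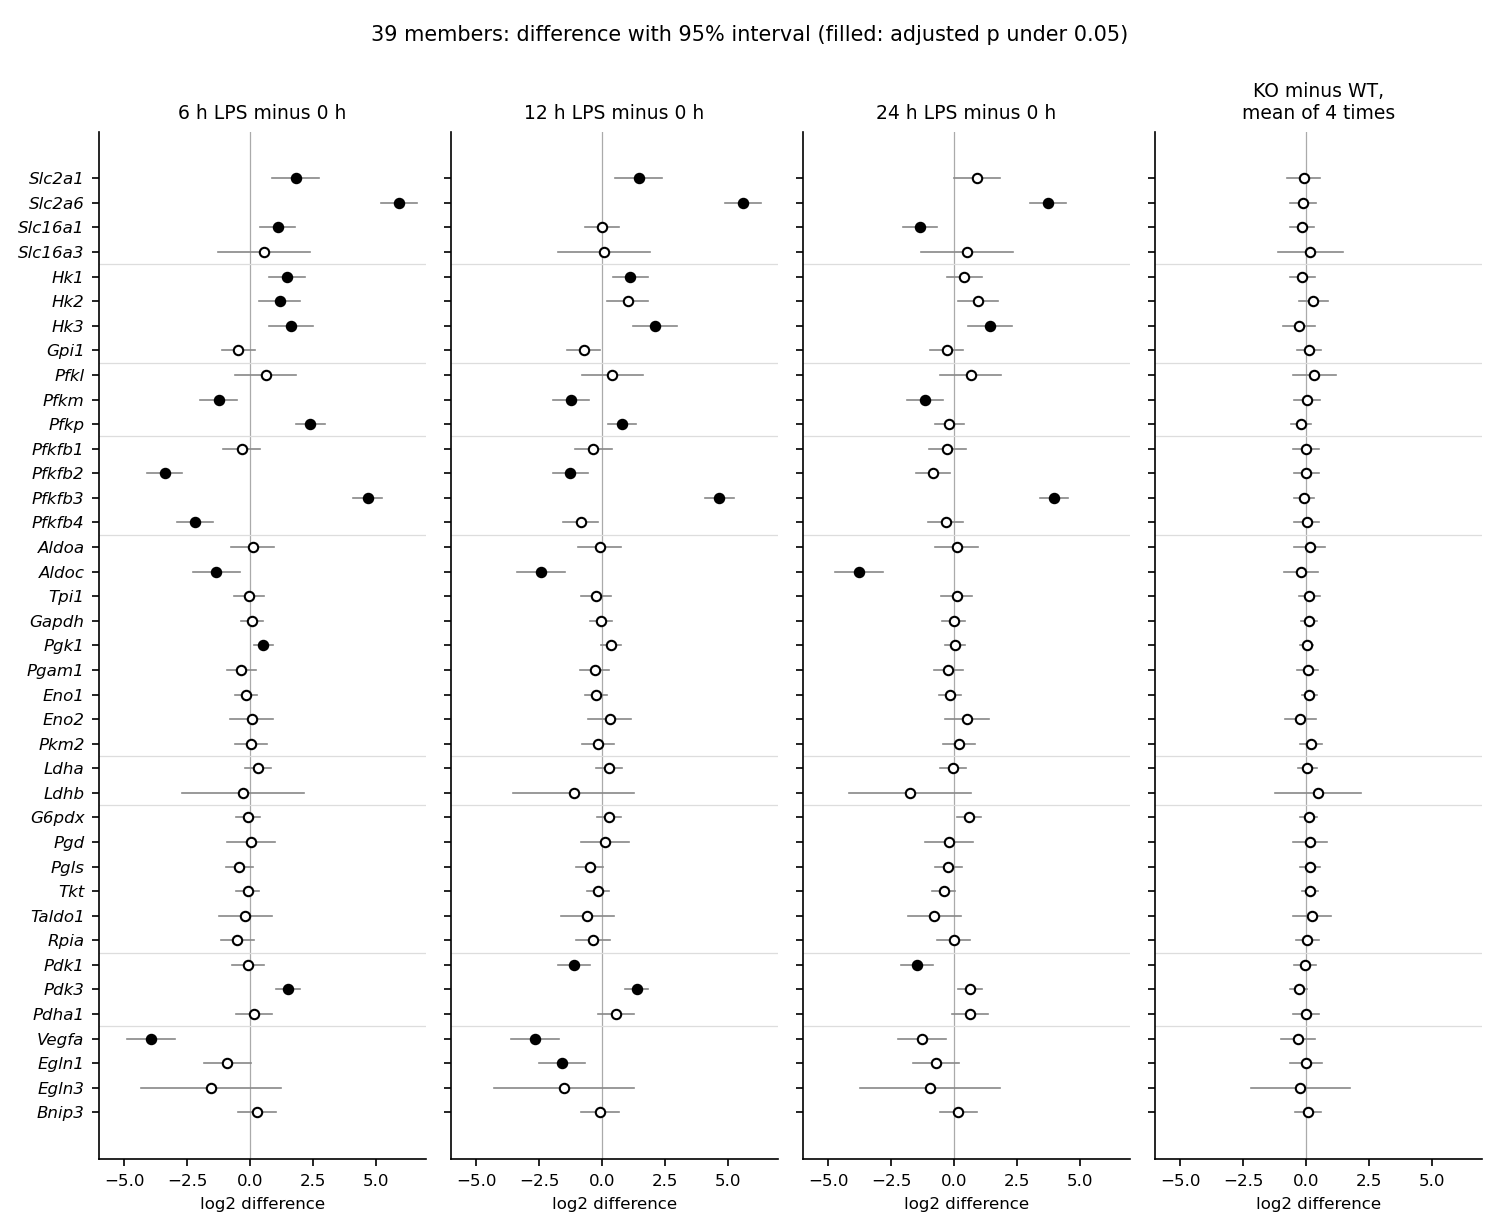
Changes at 6, 12 and 24 h of LPS minus 0 h with genotypes averaged (3 panels from the left) and the KO minus WT difference averaged over the 4 times (right panel), on log2 horizontal axes, for the 39 genes down the vertical axis in order of role, with 95% intervals as bars and filled points where the adjusted p was under 0.05. All 39 genotype intervals, drawn from the fit without the replicate block, include 0 (36 do with the block), while the 6 h changes run from -3.92 for Vegfa to 5.92 for Slc2a6.

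Other genes of the same pathways were read from lists of pathway members. At 6 h 19.5% of all tested genes were higher and 21.2% lower, the background for each list. Of 25 tested genes of glycolysis and gluconeogenesis outside the 40, 4 were higher and 7 lower at 6 h, 4 and 9 at 12 h (16.9% and 17.6% of all genes), and 4 and 6 at 24 h (11% and 11.8%). Gpd2, the mitochondrial glycerol phosphate dehydrogenase, changed by 4.24 ± 0.34 log2 at 6 h, 3.37 at 12 h and 1.81 at 24 h. Minpp1, a phosphatase of inositol and glycerate phosphates, was higher at 6 h by 2.45. Slc2a4, the insulin-regulated glucose transporter, was at least 3.12-fold higher, being well above background on 4 of 4 arrays at 6 h and on 0 of 4 at 0 h. It passed the filter on dim probes through groups where it was high, so its call is counted above without a p-value. For the lower limit of Slc2a4, each dim array counted at its measured level or at the dimmest level that was well above background there, whichever was larger. Pck2, a mitochondrial enzyme of gluconeogenesis, was at -2.96, Slc2a3, the high-affinity transporter GLUT3, at -2.36, and the glycerol phosphate dehydrogenases Gpd1 and Gpd1l at -2.03 and -1.72.

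Of 9 other pentose phosphate pathway genes 1 was higher and 4 lower at 6 h, against 19.5% and 21.2% of all genes. Rpe, the pentose phosphate epimerase, changed by 1.79 ± 0.48 log2, and Shpk, sedoheptulose kinase, by -1.95 ± 0.25. Pgm2l1, which makes a bisphosphate of glucose, was at -2.24, and Prps2 and Prps1, the ribose phosphate pyrophosphokinases, at -1.07 and -1.02. In the pyruvate dehydrogenase complex 1 of 8 was higher, Dld, its lipoamide dehydrogenase, by 1.13, and 1 lower, Pdk2, another kinase of the complex, at -1.84.

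Of 13 tested genes in the pathway of hypoxia-inducible factor itself 6 were higher and 1 lower at 6 h, against 19.5% and 21.2% of all genes. At 12 h 4 were higher and 1 lower (16.9% and 17.6% of all genes), and at 24 h 2 and 1 (11% and 11.8%). Hif1a, the oxygen-regulated subunit, changed by 2.08 ± 0.32, 1.91 and 1.18 log2 at the 3 times, while Epas1, its paralogue, was at -2.70 ± 0.46, -4.56 and -4.87. Cul2 and Vhl, parts of the ligase that removes the factor, were higher at 6 h by 2.25 and 1.08, and Cited2, a competitor for its coactivator, by 2.23. Of 36 other hypoxia-response genes 9 were higher and 12 lower at 6 h, against the same 19.5% and 21.2%. Lox, a collagen cross-linking oxidase, was at least 5.47-fold higher, with 4 of 4 arrays well above background at 6 h and 0 of 4 at 0 h. Nampt, an enzyme of NAD synthesis, changed by 3.15 log2, and Adm, the vasodilator adrenomedullin, by 2.73. Cxcr4, a chemokine receptor, was at -6.72 ± 1.06, Bhlhe40, a transcriptional repressor, at -3.73, with 3 of 4 arrays well above background at 6 h, and Narf at -3.50. Anln, which builds the cytokinetic ring, was at least 6.56-fold lower, well above background on 0 of 4 arrays at 6 h and 4 of 4 at 0 h. Lox and Anln passed the filter on dim probes through groups where they were high, so their calls are counted without a p-value. In each of these 5 lists 0 genes were called for KO against WT averaged over times.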

How the data were processed

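RNA of 16 macrophage samples was hybridised to single-colour (Cy3) Agilent arrays, 1 array per sample. The deposited scanner files hold a processed intensity per spot, background-subtracted and detrended within each array by Agilent Feature Extraction 10.5.1.1, per the file headers, with probe positions on mm9. The authors' deposited series table holds log2 values of the same signals, with each array's upper quartile near 8.79. Its Pearson correlation with the log2 scanner signal was 1 on every array, and it was used as an alternative.

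Control spots (1639 per array) and outlier spots (61 to 108 per array) were left out, no spot was saturated, and spots of 1 probe were averaged. Values are log2 of the processed signal minus the array's 75th percentile. Of 41174 probes 26855 were well above background on both arrays of at least 1 group, and the brightest probe of each name gave 17669 genes. Probes that disagreed are named in the text for some genes, but not for Tpi1 and Pkm2. The 8 group means were fitted with limma 3.58.1 (R 4.3.3, lmFit and eBayes), with 8 residual degrees of freedom and Benjamini-Hochberg adjustment over all 17669 genes at 0.05, and the code was tested on simulated data. Errors of changes are limma standard errors.

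Replicate numbers coincide with scan session, and replicates with the same number deviated together in all 28 pairs of groups (correlation 0.40 to 0.84, median 0.58), so the fit with a replicate block is given where it changes a call against 0 h. For 24 h against 6 h its added calls are given as a count, and only Pfkfb3 is named. Promoter and microRNA sequences are from RefSeq tables, GRCm38.p6. The members and the lists of other pathway genes were chosen with earlier results of these data known. Named with the values of all arrays were the 8 largest rises and 6 largest falls at 6 and 24 h, the genes Slc2a1, Hk2, Pfkfb3, Gapdh, Ldha, G6pdx, Pdk1, Egln3 and Vegfa, and, added after values were seen, Ldhb, Pgk1 and Egln1. From the lists of other genes, up to 4 called at 6 h in each direction are named. Some genes that this rule would name are not reported here. Alternatives were the replicate block, slide as a term, quantile normalization, median scaling, normexp background correction, the authors' table, other filters on dim probes, the mean of a gene's probes and leaving out each array.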

Additional observations from a re-analysis of the deposited data

How the results depend on the processing

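Of 39 tested genes 15, 13, 7 and 11 were called at 6, 12 and 24 h against 0 h and at 24 h against 6 h. Normexp background correction called 7, 7, 3 and 3. In that alternative single spots had local backgrounds of up to 722571 scanner units where the median was 18 to 21, and capping the local background at each array's 99th percentile, chosen after seeing the data, gave 15, 16, 9 and 11. The uncapped correction also turned the sign of 12 h changes of Slc2a1 (-0.0753), Hk1 (-0.42), Pfkp (-0.15) and Pfkfb2 (0.25). Quantile normalization gave 21, 19, 8 and 10 calls and turned the 6 h sign of Aldoa (-0.57), Gapdh (-0.63) and Pgk1 (-0.22), called on one side or the other, and of Ldha, Pkm2, Pgd, Bnip3 and Pdha1, called on neither; why the scalings differ was not tested. With the replicate block the counts were 18, 21, 17 and 18, with the dim Egln3 among those at 6 and 12 h. With slide as a term they were 19, 22, 13 and 16. Leaving out 1 array gave 11 to 15, 9 to 13, 5 to 8 and 9 to 11. Over all tested genes it gave 6029 to 7141, 4588 to 6014, 2709 to 3871 and 3445 to 4698. Median scaling gave 13, 10, 6 and 8, no filter on dim probes 14, 12, 7 and 9, and the mean of probes 15, 12, 7 and 11. Probes detected on all 16 arrays gave 15, 14, 9 and 12, and values from the authors 15, 13, 7 and 11. Of the 46 calls behind these counts 46 were kept with the replicate block, 46 with slide, 46 with the authors' table, 38 with quantile normalization, 33 with median scaling, 18 with normexp and 37 to 45 without 1 array. The authors' table holds the same signals, already scaled to nearly the same upper quartile on each array. Its equal counts and kept calls were thus fixed in advance and are no support. Over all genes the 6, 12 and 24 h and 24 h against 6 h counts were 7192, 6096, 4030 and 4775, with normexp 1755, 1451, 495 and 376, with the replicate block 10513, 9416, 7409 and 8610, and with slide 11023, 9843, 6904 and 8265. Median scaling gave 2895 at 24 h and 3060 for 24 h against 6 h in place of 4030 and 4775. Counts over all genes under quantile normalization, the capped correction and the other filters on dim probes are not given here. For KO against WT and for the joint F test every alternative gave 0 of the 39 genes. Dim probes limit Pfkfb2 and Egln3 most, and Car12 could not be read.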
